A study of Mus musculus with 4 samples.

Results

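Among the 8880 cells that the authors kept from the mouse epididymis and vas deferens, 1 annotated population held exactly 78 cells, 39 from the caput and 39 from the corpus. These are the Amylin-positive clear cells, called Clear 2 here after their number in the authors' reclustering of the clear cells, although the deposited cell table names them Narrow. The members were taken from that table alone, and no expression value was used to pick them. Clear 2 was set beside the main clear population, Clear 3, which held 216 cells (28 from the caput, 69 from the corpus, 94 from the cauda and 25 from the vas deferens), and levels were compared within the caput and within the corpus library. A smaller population, Clear 1, held the other 54 of the 348 clear cells.

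All cells came from 4 male FVB/NJ mice of 10 to 12 weeks. Their 8 epididymides were cut into caput, corpus, cauda and vas, and the 8 pieces of a region were pooled, freed of sperm, dissociated with collagenase IV and trypsin, and turned into 1 droplet-based single-cell library per region. A region and its library therefore cannot be told apart, there is no replicate of any group, and no test between groups was possible. Levels are given as unique molecular identifiers (UMIs, counts of distinct captured mRNA molecules) of a gene per 1000000 UMIs of the group (UPM), which are counted at the transcript's end and not divided by its length, with exact Poisson intervals, ratios with exact conditional intervals, and shares with Clopper-Pearson intervals. All intervals are at 95% and cover counting error only, neither the spread between cells nor that between animals. Because the authors clustered the cells on these same genes, a difference between Clear 2 and Clear 3 is a description of the annotation and not a test of it.

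Clear cells are scattered epithelial cells of the epididymal duct that pump protons into the lumen through a vacuolar ATPase (V-ATPase), and the acid fluid helps to hold sperm quiescent. The pump has a membrane sector, V0, and a cytosolic sector, V1, and it is moved to and from the apical surface by endocytic recycling. Amylin, the product of Iapp, is a small amidated peptide of the calcitonin family, best known as the hormone that pancreatic beta cells release together with insulin, and it signals through the calcitonin receptor paired with a receptor activity-modifying protein (RAMP).

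Iapp is a protein-coding gene that lies on the plus strand at chr6:142298423-142303961 of the GRCm38 mouse genome in the GENCODE annotation. Its promoter is shown because this gene carries nearly all of what sets Clear 2 apart. The run below covers chr6:142298175-142298424 of GRCm38.p6, the 250 bases that end just before the RefSeq transcription start, read 5′ to 3′ on the plus strand, with matches to the searched letters in capitals.
Iapp promoter: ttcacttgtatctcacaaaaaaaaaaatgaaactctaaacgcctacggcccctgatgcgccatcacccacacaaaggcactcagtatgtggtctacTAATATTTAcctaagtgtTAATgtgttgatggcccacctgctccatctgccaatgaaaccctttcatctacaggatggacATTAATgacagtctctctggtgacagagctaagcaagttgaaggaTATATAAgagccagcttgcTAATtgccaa
The spelling TATATAA began 29 bases before the start, and 1.69% of 12593 mouse promoters of the same length held it on either strand. The homeodomain core TAAT matched 5 times on both strands together, a count reached in 1.89% of those promoters, and the forkhead core variant TAAATA matched once, overlapping a TAAT. The forkhead core TAAACA, searched because clear cells use the forkhead factor Foxi1, had 0 matches in this window, against 8.43% of promoters with at least 1. These letters were chosen after the sequence had been seen, and a match is neither a bound site nor a cause.

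Clear 2 made up 39 of the 73 clear cells in the caput library, or 53.4% (41.4 to 65.2), and 39 of 132 in the corpus library, or 29.5% (21.9 to 38.1). Of the 105 clear cells of the cauda 0 belonged to it, so a share of up to 2.86% remains possible, and of the 38 of the vas 0 did, where the limit is 7.89%. These 2 limits are 3 divided by the number of cells, and Clopper-Pearson limits would be somewhat wider. The 78 cells held 140422 UMIs in the caput and 189078 in the corpus. A caput Clear 2 cell had a median of 1857 UMIs and 1174 genes and a corpus one 6028 UMIs and 1988 genes. In Clear 3 the order was the reverse, with medians of 5059.5 UMIs in the caput and 1796 in the corpus, so depth differed within each library between the populations and in opposite directions. The authors' ambient correction had removed a median of 144 UMIs from a caput and 117 from a corpus Clear 2 cell, much as in Clear 3 (142 and 120). No Clear 2 barcode sequence also occurred in another library, and a doublet caller marked 178 of the 8880 cells, 0 in Clear 2 and 2 in corpus Clear 3. The number marked in each library was set beforehand from its number of cells, so 178 is no estimate of the doublets present. The caller's limit reached only 36.3% of simulated doublets in the caput and 41.9% in the corpus, so unmarked doublets may remain.

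Iapp was the most abundant gene of Clear 2 by UMIs in both libraries. Its 6223 UMIs in the caput gave 44316 UPM (43222 to 45431), or 4.43% of all UMIs, and its 9377 UMIs in the corpus gave 49593 UPM (48595 to 50607), or 4.96%. The gene next in rank, Cd24a in the caput and the metallothionein Mt1 in the corpus, took 0.951% and 1.24%. In caput Clear 3 Iapp stood at rank 327, with 59 UMIs in 3 of 28 cells and 45 of them in 1 cell, or 479 UPM. In corpus Clear 3 it stood at rank 35, with 641 UMIs in 25 of 69 cells, or 2467 UPM, while 94 cauda cells held 18 UMIs and 25 vas cells held 0. Clear 2 thus exceeded Clear 3 by 92.4-fold in the caput (71.6 to 122) and 20.1-fold in the corpus (18.6 to 21.8), where the gap was narrower because Clear 3 itself held more Iapp.

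**Figure D1:**
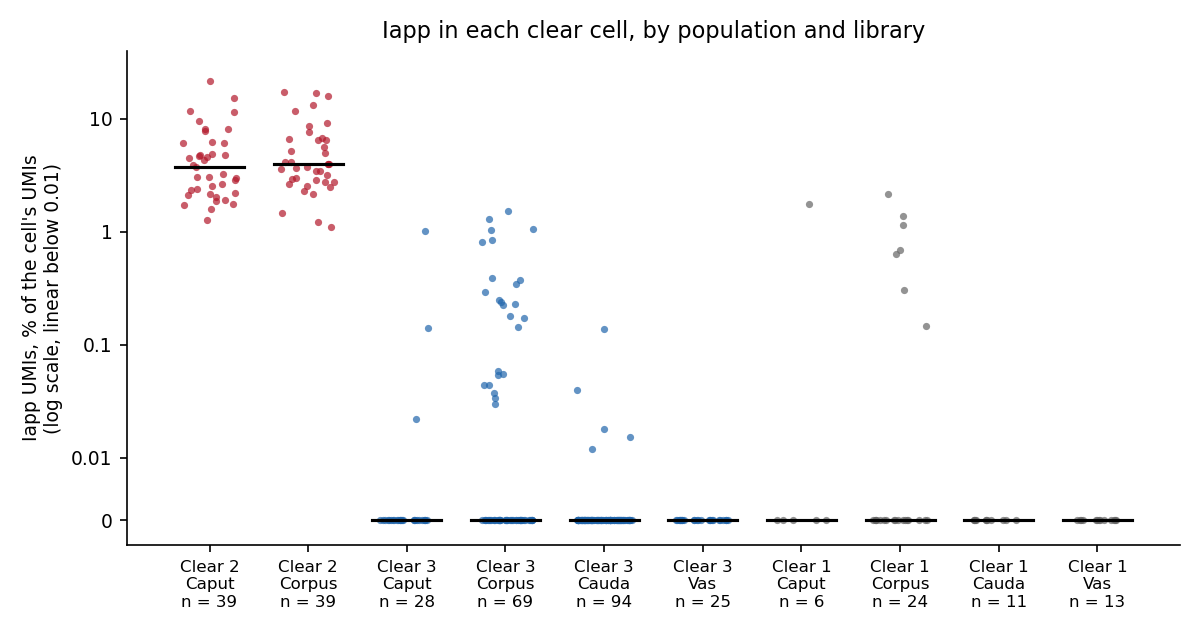
Iapp UMIs as a percent of all UMIs of each clear cell (vertical axis, logarithmic above 0.01 and linear below), by population and library, with 1 point per cell and a bar at the median. All 78 Clear 2 cells sit at or above 1.10%, and the highest of the Clear 3 cells reach 1.54%.

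The signal was spread over the whole population. Every Clear 2 cell held at least 7 Iapp UMIs, and the share per cell ran from 1.26 to 21.7% in the caput with a median of 3.75%, and from 1.10 to 17.2% in the corpus with a median of 3.98%. Across both libraries 25 of the 78 cells were above 5%, 9 were above 10% and 9 were under 2%. Shallow cells had the higher median shares and lay at both ends of the range. The median was 4.11% in the 16 caput cells under 1000 UMIs and 3.25% in the other 23. It was 5.72% in the 12 such corpus cells and 3.72% in the other 27. Of the 9 cells above 10%, 7 had fewer than 1000 UMIs. So did the cells with the lowest shares, at 1.10% and 1.22% in the corpus and 1.26% in the caput. Spearman's rho of the share with the UMIs per cell was -0.139 in the caput and -0.0840 in the corpus (39 cells of 1 library each, described without a test). After each cell was thinned to 1000 UMIs, which left out 28 shallower Clear 2 cells, Iapp was present in 50 of 50, 2 of 20 caput Clear 3 cells and 17 of 48 corpus Clear 3 cells. The same thinned share was 1.75% and 2.60% in caput and corpus principal cells and 2.05% and 0.251% in basal cells. The corpus Clear 3 share of 35.4% (22.2 to 50.5, unthinned 25 of 69 cells at a median of 1796 UMIs) lay above these shares. The caput Clear 3 share of 10% had an interval (1.23 to 31.7) that included both caput shares. The source of Iapp in Clear 3 cells was not tested.

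No wide gap separated the populations. The lowest Clear 2 cell was at 1.10% and the highest Clear 3 cell at 1.54%. Of the 97 caput and corpus Clear 3 cells, 2 lay at or above the lowest Clear 2 cell, and 4 of the 78 Clear 2 cells lay at or below the highest Clear 3 cell. The Clear 3 cells nearest to the edge were corpus cells at 1.54, 1.29, 1.06 and 1.05%, followed by a caput cell at 1.02%, and they held 20 to 70 UMIs of the clear cell marker Atp6v1g3. The doublet caller marked 1 of these 5, the cell at 1.05% with 104 Iapp UMIs. Clear 1 overlapped Clear 2 as well, on few molecules: Iapp had 5 UMIs in 1 of 6 caput cells (2043 UPM) and 69 in 7 of 24 corpus cells (3824 UPM), and 4 of these 30 cells lay at or above the lowest Clear 2 cell, at 2.16, 1.76, 1.37 and 1.14%.

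Of the other marker genes named for these cells, Atp6v1g3 held in Clear 2 but was shared with Clear 3, and Edn2 did not mark the population. Atp6v1g3, the V1 subunit G isoform typical of proton-secreting cells, stood at 8788 UPM in caput and 7711 in corpus Clear 2 cells, against 7671 and 7702 in Clear 3, ratios of 1.15 (1.05 to 1.25) and 1.001 (0.935 to 1.07). It was found in 32 of 39 caput and 34 of 39 corpus Clear 2 cells, and in 49 of the 50 cells thinned to 1000 UMIs. Principal cells held 19 and 176 UPM and basal cells 9 and 21. The authors identified clear cells by V-ATPase genes in these same counts, so this contrast describes the annotation and does not test it. Edn2, which encodes the vasoactive peptide endothelin 2, had 22 UMIs in all of Clear 2, 2 in the caput in 2 cells and 20 in the corpus, and those 20 all came from 1 cell. Clear 3 had 4 UMIs in each library. The Edn2 ratio was 0.438 in the caput (0.0396 to 3.06) and 6.87 in the corpus (2.30 to 27.6), and over both libraries it went from 3.20 to 0.398 once the cell with the most Edn2 was left out of each group. The related Edn3 was more evenly spread, at 370 and 582 UPM in 17 and 26 Clear 2 cells against 203 and 439 UPM in Clear 3, ratios of 1.82 (1.11 to 3.07) and 1.33 (1.01 to 1.74).

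The proton pump was present in Clear 2 at about the level of Clear 3. The V1 subunits together held 13196 UPM in the caput and 11487 in the corpus, against 11733 and 11932 in Clear 3, ratios of 1.12 (1.05 to 1.21) and 0.963 (0.911 to 1.02). The V0 subunits held 6395 and 6796 UPM against 5924 and 5716, ratios of 1.08 (0.978 to 1.19) and 1.19 (1.10 to 1.28). Of the 13 V1 subunits listed, 11 had at least 20 UMIs in Clear 2 or Clear 3, with a median ratio of 0.989 over both libraries, and of the 10 V0 subunits 7 did, with a median of 1.16. The median over all 3677 genes with that many UMIs was 0.935, which lies below 1 in part by construction, since Iapp alone takes almost 5% of the Clear 2 total. No pump subunit was 2-fold higher or lower in both libraries. Atp6v0c, which forms the proton-carrying ring, stood at 3254 and 3385 UPM against 3177 and 2486 in Clear 3, ratios of 1.02 (0.893 to 1.18) and 1.36 (1.22 to 1.52). Atp6v0b, its partner in that ring, differed in the other library, with ratios of 1.56 in the caput (1.13 to 2.16) and 1.05 in the corpus (0.840 to 1.30). Atp6v1a, the catalytic subunit, stood at 833 and 603 UPM against 739 and 862. Its ratio was 1.13 in the caput (0.849 to 1.499) and 0.699 in the corpus (0.553 to 0.880). Atp6v1b1, the second nucleotide-binding subunit in its epithelial isoform, was at 185 and 143 UPM against 268 and 158, both intervals of the ratio spanning 1.

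**Figure D2:**
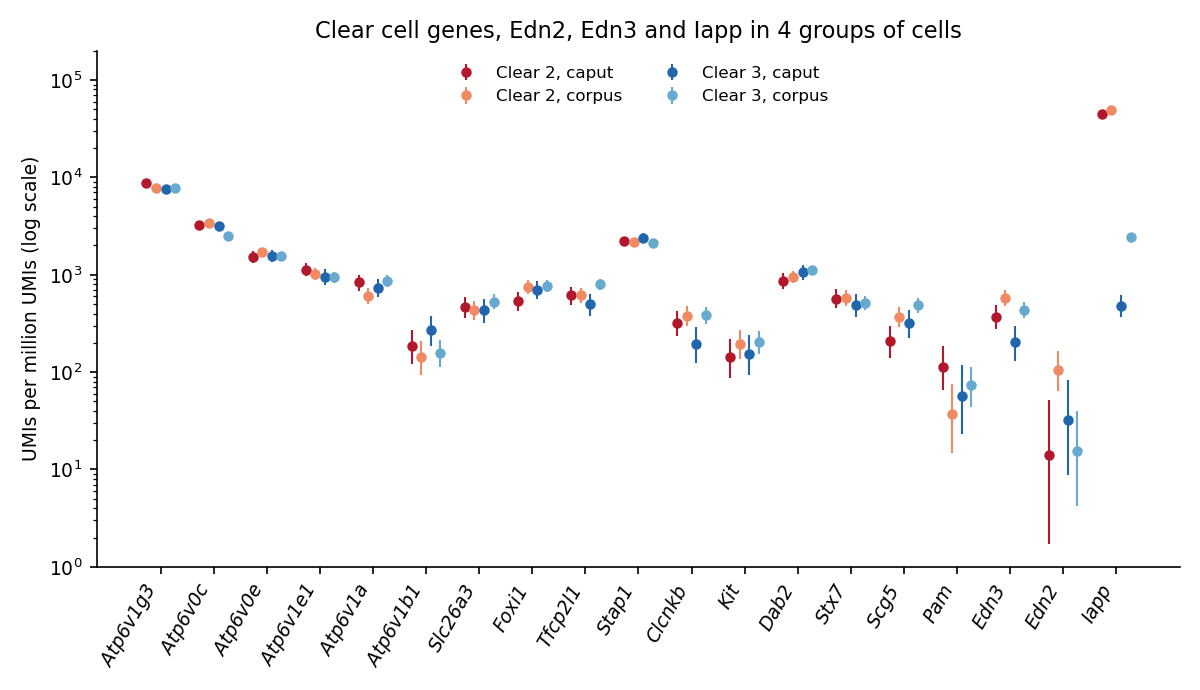
Levels of clear cell genes, Edn2, Edn3 and Iapp in UMIs per 1000000 UMIs (vertical axis, logarithmic) for Clear 2 and Clear 3 of the caput and corpus, with exact Poisson 95% intervals. The 4 groups lie close together for the pump, transcription factor and trafficking genes, and only for Iapp do both Clear 2 groups stand well above both Clear 3 groups.

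Many genes that mark proton-secreting cells elsewhere in the body were found in both populations, with a lower sum in corpus Clear 2. The list had a summed ratio of 0.992 in the caput (0.894 to 1.10) and 0.804 in the corpus (0.746 to 0.865). Its sum was not particular to clear cells. Corpus principal cells held 40030 UPM of it, against 5960 in corpus Clear 2 and 7417 in corpus Clear 3. The part of principal cell RNA in the corpus ratio was not tested. Foxi1, the forkhead factor that drives ionocyte and intercalated cell identity, stood at 534 and 756 UPM in Clear 2 and 699 and 766 in Clear 3. Tfcp2l1, a factor that acts beside Foxi1 in the kidney, was at 612 and 614 UPM against 496 and 797. Of the 24 genes of this list 13 had at least 20 UMIs, their median ratio was 0.889, and 0 were 2-fold apart in the same direction in both libraries. Rhbg, an ammonia transporter, was the lowest of them, with 3 and 1 UMIs in Clear 2 and 1 and 22 in Clear 3, a corpus ratio of 0.0625 (0.00151 to 0.386). Stap1, an adaptor protein, was at 2201 and 2163 UPM in Clear 2 and 2397 and 2113 in Clear 3 of the same libraries, but at 812 in cauda Clear 3. Insrr, an insulin receptor relative that senses alkaline pH, went the same way with 114 and 63 UPM in Clear 2, 65 and 108 in Clear 3 and 2 in cauda Clear 3, as did the proenkephalin gene Penk with 135 and 238, 146 and 162, and 4 UPM. For these 3 genes caput and corpus Clear 3 lay nearer to Clear 2 than to cauda Clear 3. The bicarbonate and chloride exchanger Slc26a3 stood at 470 and 434 UPM in Clear 2 and 431 and 531 in Clear 3, and it was 1 of only 2 of the 23 listed acid-base transporters with at least 20 UMIs. Slc4a9, listed as a clear cell marker, had 0 UMIs in Clear 2 and in Clear 3 of both libraries.

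Endocytic and energy genes were close as well. Dab2, an adaptor that gathers cargo into coated pits, stood at 869 and 952 UPM in Clear 2 against 1056 and 1109 in Clear 3, and the syntaxin Stx7 at 570 and 582 against 488 and 516. Of 34 endocytosis and trafficking genes 22 had at least 20 UMIs, with a median ratio of 0.974. Rab11b, a recycling GTPase, was the lowest of them at 93 and 85 UPM against 211 and 166, ratios of 0.438 (0.207 to 0.884) and 0.511 (0.269 to 0.926). The 71 respiratory chain and ATP synthase genes with enough UMIs had a median ratio of 0.985 and together held 45591 and 43940 UPM in Clear 2 and 45885 and 46562 in Clear 3. Ribosomal protein genes differed in the caput alone, with 134231 against 157206 UPM, a ratio of 0.854 (0.837 to 0.871), and a corpus ratio of 1.01 (0.990 to 1.02). That list was taken by name pattern and also caught 10 S6 kinase genes. Caput Clear 2 cells were also the shallower population of their library, and the part of depth in the ribosomal difference was not tested.

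**Figure D3:**
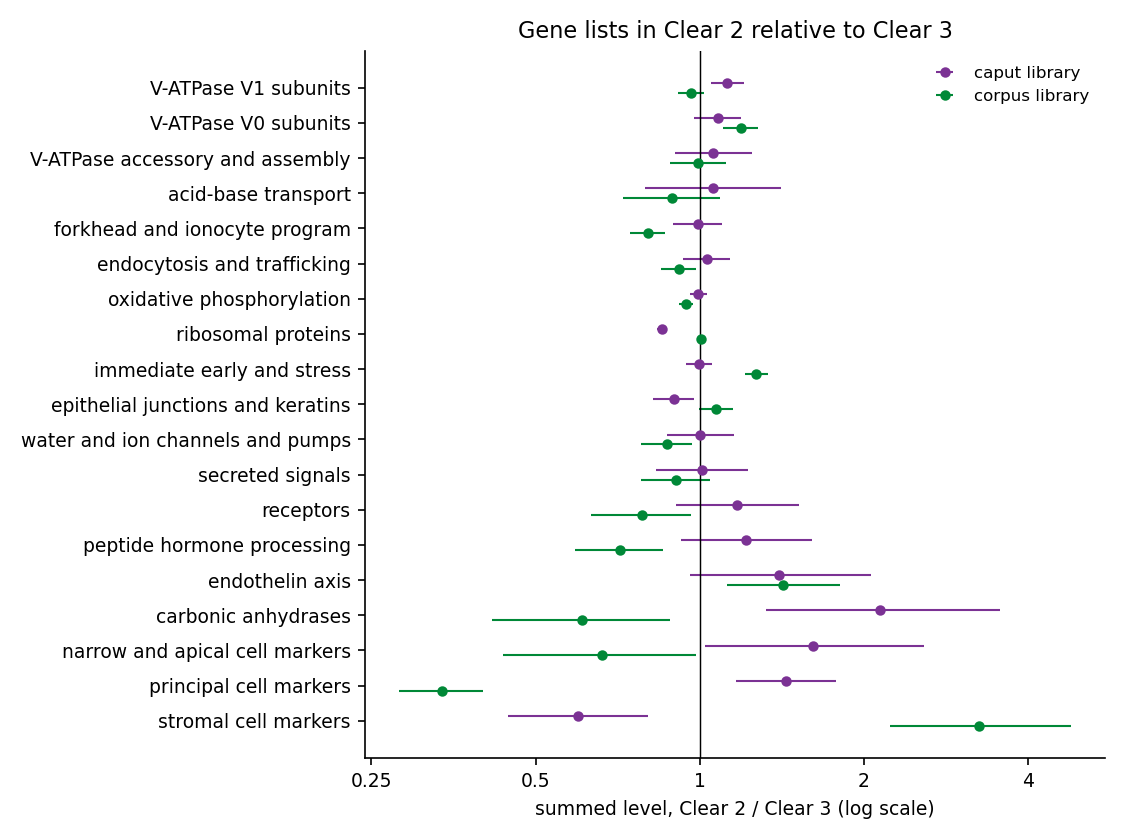
Ratio of the summed level of each gene list in Clear 2 to that in Clear 3 (horizontal axis, logarithmic), within the caput and within the corpus library, with exact 95% intervals for counting error. Pump, trafficking and respiratory chain lists lie near 1, while lists such as the carbonic anhydrases, the narrow and apical, principal and stromal cell markers fall on opposite sides of 1 in the 2 libraries.

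Among genes with at least 20 UMIs, Iapp stood almost alone at 4-fold in both libraries. Of 2865 genes with at least 20 UMIs in Clear 2, 2 (0.0698%) were at least 4-fold over Clear 3 in both libraries, Iapp and Cited2. In the opposite direction 0 of 3525 (0%) genes with at least 20 UMIs in Clear 3 were at least 4-fold lower in Clear 2 in both. Groups at fewer than 3 UMIs were set to 3 for these counts. Lowering the limit to 2-fold gave 11 genes higher (0.384%) and 48 lower (1.36%). With 1 library per region, no replicate shows how many genes pass these limits by chance.

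**Figure D4:**
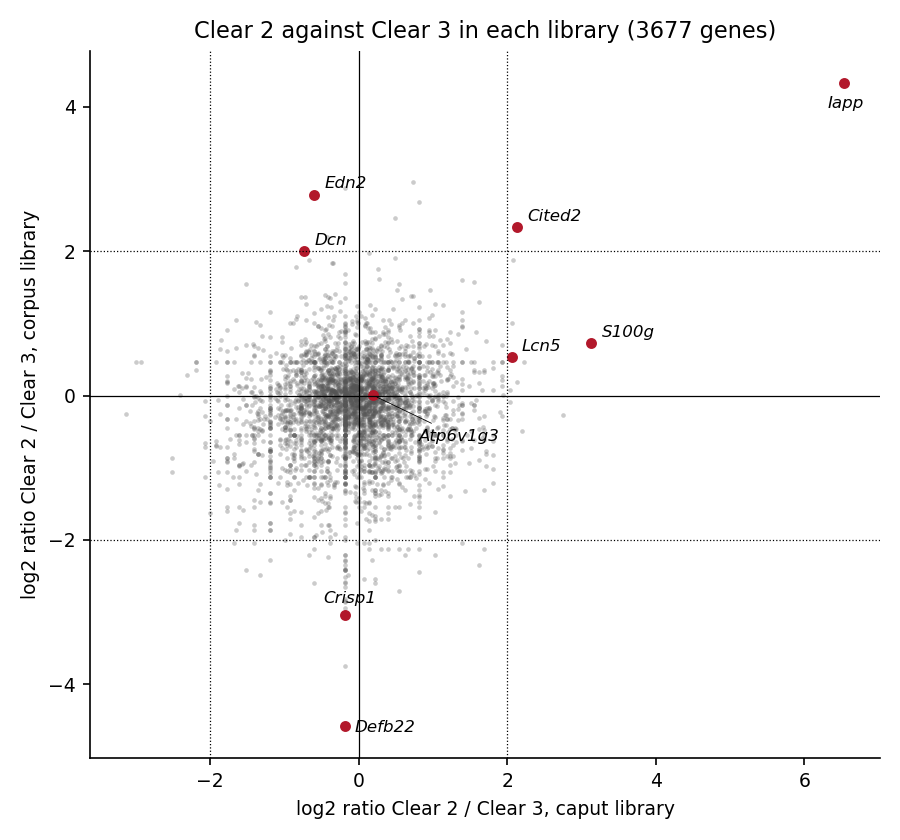
Ratio of Clear 2 to Clear 3 on the log2 scale in the caput (horizontal axis) and corpus library (vertical axis) for the 3677 genes with at least 20 UMIs in either population, groups under 3 UMIs set to 3, with dotted lines at 4-fold. Iapp lies far from the rest in the upper right, Cited2 is the other gene past both lines there, and no gene lies past both lines in the lower left.

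The genes that followed Iapp in rank rested on few molecules. Cited2, a transcriptional coregulator that binds CBP and p300, had 20 and 11 UMIs in caput and corpus Clear 2 and 4 and 2 in Clear 3, ratios of 4.38 (1.47 to 17.6) and 7.56 (1.65 to 70.2). Of the 11 corpus UMIs 8 lay in 1 cell, and with the Clear 2 cell richest in each gene left out, Iapp was the 1 gene past 4-fold. Cxcl10, an interferon-inducible chemokine, had 24 and 16 UMIs in 7 and 4 cells against 5 and 6, ratios of 4.21 (1.57 to 14.1) and 3.66 (1.36 to 11.4). Of the 15 highest-ranked genes, Iapp, Cited2 and Cxcl10 were the 3 whose intervals lay above 1 in both libraries. The others included Mrpl13, Id3, Dctn4, Auts2, Bik, Nabp2, Gcc1, Ubqln2, Gigyf1, Actr10 and 2210016L21Rik, and the median over the 15 was 29 UMIs. Id3, an inhibitor of basic helix-loop-helix factors, had 9 and 11 UMIs against 2 and 5 in the matched Clear 3 cells, while cauda Clear 3 held 861 UPM, far above the 64 and 58 UPM of Clear 2.

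The genes lower in Clear 2 were of the same modest size. The 15 highest-ranked, among them Pdzd11, Prrc1, Capn5, Zbtb2, Med22, Gnaq, Ubap1 and Gpr89, were between 2.51 and 3.19-fold lower in the library with the smaller ratio, on a median of 26 UMIs in Clear 3. Intervals lay beyond 1 in both libraries for 5 of them, among them Pdzd11, 1700123O20Rik, Zbtb2 and Gpr89. Pdzd11, a PDZ protein of epithelial junctions, had 5 and 2 UMIs against 14 and 17.

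Which genes looked particular to Clear 2 depended on the comparator. Set against Clear 3 of all 4 libraries, 14 of 2865 genes (0.489%) were at least 4-fold higher. They were Iapp, Spag11b, Lcn8, Tmem151b, Edn2, Defb30, Cst11, Lcn5, Kctd12, Gpx5, Cited2, Defb20, Rgs2 and Slc14a1, with a median ratio of 5.78. With the caput and corpus Clear 3 cells as the comparator, the median ratio of the same 14 genes was 2.42. Of the 14, 2 were at least 4-fold higher with the libraries pooled, and 2 in both libraries. The 14 were picked by the first ratio, so a drop is in part built in. Spag11b, Lcn8, Cst11 and Gpx5 had 0 UMIs in corpus Clear 2 and could not pass there. Spag11b, a sperm-associated defensin-like gene of the caput, went from 8.79-fold to 3.21-fold with the same Clear 2 cells. In caput cells of both populations alone its ratio was 2.42 (1.76 to 3.37). Gpx5, the secreted caput glutathione peroxidase, went from 5.15-fold to 1.81-fold, and its ratio in caput cells alone was 1.37 (1.02 to 1.84). Within the caput alone 7 of 1224 genes (0.572%) were at least 4-fold higher in Clear 2, namely Iapp, Cited2, Cxcl10, Erlec1, Gng4, Lcn5 and S100g, and within the corpus alone 2 of 1624 (0.123%), Iapp and Edn2. Gng4, a G protein gamma subunit named after its values were seen, had 23 UMIs in 11 caput Clear 2 cells and 3 UMIs in caput Clear 3, a ratio of 6.72 (2.03 to 35.0), but 26 against 43 UMIs in the corpus, 0.831 (0.490 to 1.38).

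Amylin is made from a precursor that needs cleavage by prohormone convertases, trimming by a carboxypeptidase and amidation. Pcsk1 and Pcsk2, the convertases of beta cells, had 0 UMIs in Clear 2, the carboxypeptidase gene Cpe had 2, and the ubiquitous convertase gene Furin had 13. Another carboxypeptidase gene of the list, Cpd, had 2 and 12 UMIs in caput and corpus Clear 2 and 7 and 25 in Clear 3. The amidating enzyme gene Pam had 16 and 7 UMIs, or 114 and 37 UPM, against 57 and 73 in Clear 3, with both intervals of the ratio spanning 1. Scg5, which encodes the convertase chaperone 7B2, was at 207 and 370 UPM in Clear 2 and 317 and 485 in Clear 3, compared with 2 and 27 in principal cells. Of 22 processing genes 5 had at least 20 UMIs, and their median ratio was 0.764. Of 23 islet hormone and islet factor genes 13 were in the table and 0 had at least 20 UMIs, and Ins1 and Ins2 were among those not analysed here. Among the islet and convertase genes that were measured, none accompanied Iapp above this limit.

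Of the parts of the amylin receptor, the calcitonin receptor was close to absent from the counts, and RAMP transcripts lay mainly outside Clear 2. Calcr, the calcitonin receptor gene, had 3 UMIs in all 8880 cells, 2 of them in Clear 2, too few to place it in any population. Ramp1 had 5191 UMIs in the whole series and 7 in Clear 2, with its highest level in a principal cell population of the epididymis at 940 UPM. Ramp3 had 2668 UMIs and 3 in Clear 2, with 867 UPM in another principal population, and Ramp2, with 501 UMIs, was highest in endothelial cells at 287 UPM. Calcrl, the receptor for the related peptides adrenomedullin and CGRP, had 1324 UMIs and 0 in Clear 2. Adm, the adrenomedullin gene, was low in Clear 2 at 78 and 79 UPM, against 935 and 1153 in basal cells.

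The deposited name Narrow was set beside genes described for narrow and apical cells of the initial segment. Car2, which encodes the carbonic anhydrase that supplies protons and bicarbonate, stood at 356 UPM in caput Clear 2 and 163 in caput Clear 3, a ratio of 2.19 (1.28 to 3.89), and at 159 against 200 in the corpus, 0.793 (0.488 to 1.27). Abca1, a cholesterol exporter, was at 50 and 32 UPM in Clear 2 and 65 and 85 in Clear 3. Slc12a2 had 0 UMIs and Pdgfb 2 UMIs in Clear 2. The list together stood at 1.61 in the caput (1.02 to 2.58) and 0.661 in the corpus (0.437 to 0.985). Per the paper, narrow and apical cells lie only in the initial segment of the caput, so the corpus cells cannot test the name. The paper judged the match unlikely, since it saw Amylin-positive cells beyond the initial segment and found Car2 not enriched in this subcluster. Whether the caput cells include narrow cells was not tested. The population is called here by its rule and its leading gene.

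Few signalling genes reached 20 UMIs. Of 63 listed secreted signals 12 did, with a median ratio of 0.969, and of 43 listed receptors 7 did, with a median of 1.04. Kit, a receptor tyrosine kinase also used as an ionocyte marker, was at 142 and 196 UPM in Clear 2 and 154 and 204 in Clear 3. Hepacam2, an adhesion protein found in intercalated cells, stood at 313 and 259 UPM in Clear 2 and 333 and 127 in Clear 3, a corpus ratio of 2.04 (1.29 to 3.27) and a caput ratio of 0.941 (0.601 to 1.48). Immediate early and stress genes, all 18 of which passed 20 UMIs, held 19783 and 16242 UPM in Clear 2 and 19802 and 12783 in Clear 3, ratios of 0.999 (0.946 to 1.06) and 1.27 (1.21 to 1.33). Dusp1, a phosphatase of this group, stood at 460 UPM in corpus Clear 2 and 204 in corpus Clear 3, with 23 of the 87 Clear 2 UMIs in 1 cell.

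Caput and corpus Clear 2 cells differed in a small set of genes, many of them abundant in principal cells. In the caput 11 of 1224 genes with at least 20 UMIs (0.899%) were at least 4-fold over the corpus, and in the corpus 13 of 1624 (0.8%) were at least 4-fold over the caput. In Clear 3 the same count gave 14 of 1076 (1.3%) and 36 of 2490 (1.45%), and between corpus and cauda Clear 3 it gave 40 of 2490 (1.61%) and 51 of 4597 (1.11%). Of these genes, 8 of 11 stood higher in caput principal cells than in caput Clear 2, beside 10.2% of all 1224 tested, and 11 of 13 higher in corpus principal cells than in corpus Clear 2, beside 16.01% of all 1624. The 6 genes with the largest caput excess were Spag11b with 149 caput and 0 corpus UMIs, the glutathione peroxidase Gpx5 with 120 and 0, the defensin Defb20 with 89 and 1, the membrane-associated signalling protein Basp1 with 59 and 0, the lipocalin Lcn8 with 31 and 0, and Defb47 with 26 and 2. Spag11b was thus at least 66.9-fold higher in caput Clear 2, setting the corpus at 3 UMIs. The 6 with the largest corpus excess were Apoe with 2 caput and 57 corpus UMIs, the sperm-binding protein gene Crisp1 with 2 and 43, the protease inhibitor Spint4 with 0 and 36, Cuzd1 with 2 and 34, the surface antigen Cd52 with 0 and 26, and Wfdc10 with 4 and 31.

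**Figure D5:**
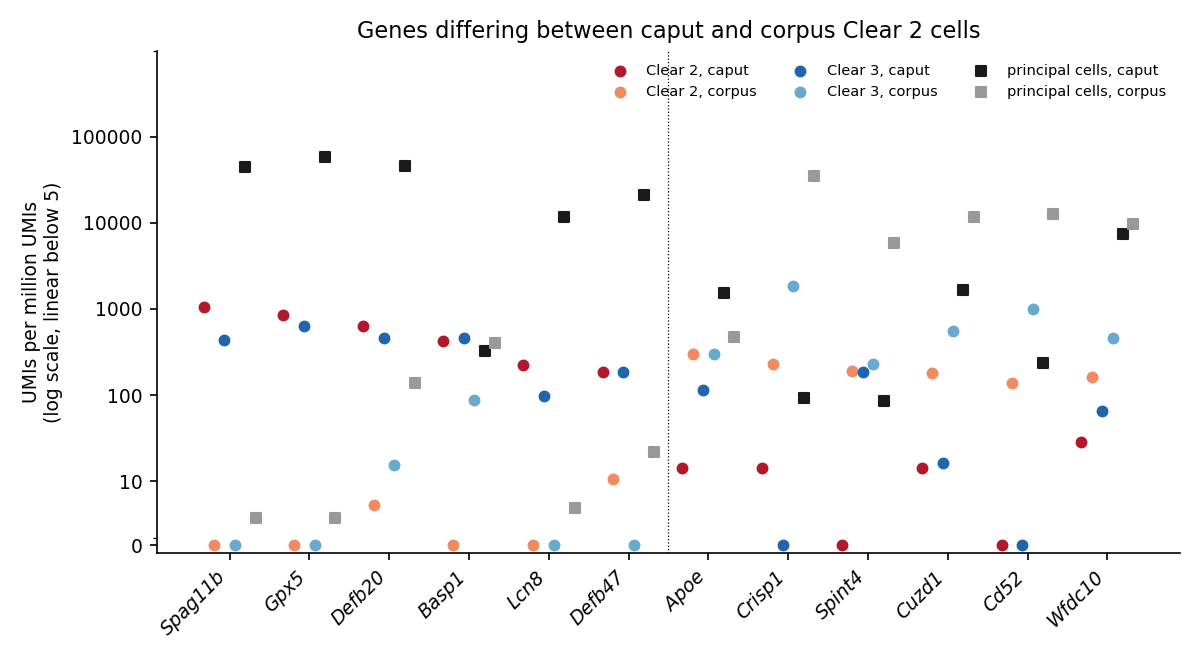
Levels of the 12 genes with the largest caput or corpus excess within Clear 2 (left and right of the dotted line), in UMIs per 1000000 UMIs (vertical axis, logarithmic above 5 and linear below), for Clear 2, Clear 3 and principal cells of both libraries. For 10 of the 12 genes the principal cells of the library with the higher Clear 2 level stand far above it, and Basp1 and Apoe are the exceptions.

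For 10 of these 12 genes the level in Clear 2 was a small part of that in neighbouring principal cells. Gpx5 stood at 855 UPM in caput Clear 2, 626 in caput Clear 3, 57990 in caput principal cells and 927 in caput basal cells. Crisp1 was at 227 UPM in corpus Clear 2, 35310 in corpus principal cells and 1022 in corpus basal cells. In caput Clear 2 the 149 Spag11b UMIs lay in 8 of 39 cells and the 120 Gpx5 UMIs in 8 of 39. The basal level was close to that of Clear 2 for Gpx5 and well above it for Crisp1, and RNA of principal cells in droplets of other cells was not tested as a source. Basp1 did not follow this pattern, with 420 UPM in 17 of 39 caput Clear 2 cells, 463 in caput Clear 3, 326 in caput principal and 281 in caput basal cells, against 0 UMIs in corpus Clear 2. Apoe reached 301 UPM in corpus Clear 2, 300 in corpus Clear 3 and 28992 in corpus basal cells, and 34 of its 57 UMIs were in 1 Clear 2 cell.

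Genes abundant in principal cells also lay among those lower in Clear 2 than in Clear 3 within the corpus. There, 40 of 2490 genes (1.61%) were at least 4-fold lower in Clear 2 than in Clear 3, against 3 of 1076 (0.279%) in the caput, Slc38a5, Spint4 and Tcap. Of the 40, 17 stood higher in corpus principal cells than in corpus Clear 3, 15 of them by more than 5 times, beside 449 (18.03%) and 38 (1.53%) of all 2490 genes tested. Of the 40, 0 were 4-fold lower in the caput, where 18 had at most 3 UMIs in both groups. The defensin Defb22 had 0 UMIs in corpus Clear 2 and 98 in corpus Clear 3, 59 of them in 1 cell, beside 7585 UPM in principal cells. Cd52 had 26 and 257 UMIs, and Npy, a neuropeptide, 5 and 56. The position of a cell along the corpus is not recorded, and its part in these differences was not tested.

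Most markers of other cell types were near 0 in Clear 2, apart from Dcn, Cd74 and the principal cell genes. In Clear 2 the endothelial list (Pecam1, Emcn, Cdh5, Kdr) had 0 UMIs, and of the basal markers Krt14 had 0, Krt5 2, Trp63 3 and Itga6 7. The muscle markers had at most 6 UMIs each, and Ptprc, Lyz2, Cd14 and C1qa had 0, with Cd74 the immune marker that was seen, at 10 and 23 UMIs. The immune list stood at 0.730 of Clear 3 in the caput (0.283 to 1.84) and at 2.43-fold in the corpus (1.18 to 5.22). The stromal list held Col1a1, Col1a2 and Col3a1 at 0, Lum at 1 and Dcn at 80 and 96 UMIs. Dcn, the proteoglycan decorin, was found in 10 and 21 of 39 Clear 2 cells at 570 and 508 UPM, while Clear 3 stood at 951 UPM in the caput, with 80 of 117 UMIs in 1 cell, and 127 in the corpus. Since the fibrillar collagens were at 0, Dcn came without the rest of the stromal list. The 10 principal cell markers together held 1730 and 841 UPM in Clear 2, 1203 and 2502 in Clear 3 and 1429 and 1430 in basal cells.

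Outside the clear cells Iapp was rare. The 8532 other cells held 288 Iapp UMIs in 64 cells, or 11.4 UPM, and Clear 2 held 96.8% of all Iapp UMIs of the caput library, 91.9% of those of the corpus and 93.5% of those of the series. Non-clear populations were also split by library, so that some counted once for the caput and once for the corpus. Of the 18 such groups with at least 50 cells, 15 had an Iapp UMI, and the highest reached 174 UPM. Only 5 non-clear cells had more than 10 Iapp UMIs, from 11 to 30, and they also held 1, 5, 22, 53 and 32 Atp6v1g3 UMIs. The doublet caller marked 1 of them.

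Over the genes with at least 20 UMIs in Clear 2, the profile of Clear 2 lay closest to Clear 3. These were 2864 genes with Iapp left out, so genes low in Clear 2 but abundant in other populations did not enter. Pearson's r of log2(UPM + 10) with caput and corpus Clear 3 was 0.956. Basal cells followed at 0.698 and a principal population at 0.683, populations that differ in depth. Clear 1, the other clear population, reached only 0.425, on 20417 UMIs in 30 cells. The order is therefore no ranking of cell type alone, and the part of depth in it was not tested. Within a library Clear 2 and Clear 3 reached 0.909 in the caput and 0.930 in the corpus. Between caput and corpus it was 0.886 for Clear 2 and 0.870 for Clear 3. The Clear 3 value rests on the same genes, chosen through Clear 2, so it is not on an equal footing with the others. Genes are not independent replicates, so these values are a description without a test.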

How the data were processed

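Per the study's methods, the authors extracted droplet barcodes with umitools, aligned reads with HISAT2 2.0.4 (named with bcl2fastq in the submitters' processing notes) to mm10 with RefSeq transcripts, counted UMIs per gene with ESAT, ignoring multi-mapped reads, and removed ambient RNA per cell with a modified SoupX. The deposited values used here are raw UMI counts of 16892 genes in 8880 cells, and the authors' deposited cell table gave library, cluster name and UMI totals before ambient removal (350 to 14999). Reads of near-identical genes, such as clustered defensins, could be lost where multi-mapped. Totals per library ranged from 4408989 to 10744928 UMIs.

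Counts were summed per population and library and divided by that group's total UMIs. No cell was removed. Doublets were called from simulated pairs within each library, at a preset rate of 0.8% per 1000 cells, and left out as an alternative only. A gene was counted as higher or lower at 4-fold with at least 20 UMIs on the higher side and 3 UMIs as the floor, and intervals are at 95%. Alternatives were the library, fold, UMI minimum, doublets, comparator and denominator. Named genes were the markers, up to 15 a side by the smaller of both library ratios (at least 5 UMIs in each library), 6 a side between caput and corpus Clear 2, and members of 29 gene lists. Some genes that met the rule are not reported here. The members and lists were chosen with earlier results of these data known. The software was scipy 1.17.1, scikit-learn 1.9.0, numpy 2.4.6 and pandas 2.3.3 under Python 3.11.15. The counting rule was tried on simulated Poisson counts, with changes placed only in genes well covered in both libraries. That setting does not cover genes that rest on few molecules or on 1 cell. Promoter and gene positions came from RefSeq (GRCm38.p6) and GENCODE (GRCm38).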

Additional observations from a re-analysis of the deposited data

Results flagged for a closer look

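Several ratios of Clear 2 to Clear 3 lay on opposite sides of 1 in the caput and in the corpus library, each with an interval that left out 1. The difference between the libraries was not tested, since each region has 1 library. The stromal list was at 0.599 in the caput and 3.25 in the corpus, and its 1 abundant member Dcn at 0.599 and 4.00. The principal cell markers were at 1.44 and 0.336, the carbonic anhydrases at 2.14 and 0.609, and the narrow and apical cell markers at 1.61 and 0.661. Among single genes, the stress-induced transcription factor gene Atf3 was at 0.781 and 1.54, the small heat shock protein gene Hspb1 at 0.621 and 1.53, and the ribosomal protein gene Rpl14 at 0.769 and 1.18. The order of the median UMIs per cell between Clear 2 and Clear 3 also differed between the libraries, and its part in these ratios was not tested.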

How the results depend on the processing

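Across 10 results, 70 alternatives were run, 15 of them chosen after seeing the data, and 42 left the result within its counting interval or within 1.5 times its count. The Iapp ratio over both libraries (25.9) was 92.4 in the caput alone, 20.1 in the corpus alone, 46.4 as a mean over cells, 29.9 without called doublets, 28.9 without the cell with most Iapp in each group and 71.8 against Clear 3 of all 4 libraries. The 2 called doublets of corpus Clear 3 held 122 of its 641 Iapp UMIs. The Edn2 ratio (3.20) turned to 0.438 in the caput alone and to 0.398 without the top cells. The Atp6v1g3 ratio (1.06) was 1.20 as a mean over cells, 1.15 in the caput, 1.001 in the corpus and 1.17 against all 4 libraries, and the V-ATPase ratio (1.07) was 1.19 as a mean over cells, 1.11 in the caput and 1.12 with Iapp left out of the totals. Genes higher in Clear 2 (2) became 11 at 2-fold, 1 at 8-fold, 1 with at least 50 UMIs, 7 in the caput alone, 1 without the top Clear 2 cell of each gene and 14 against all 4 libraries. Genes lower (0) became 48 at 2-fold, 3 in the caput alone and 40 in the corpus alone. Genes differing between caput and corpus Clear 2 (24) became 136 at 2-fold, 12 at 8-fold, 6 with at least 50 UMIs and 14 in cells with at least 1000 UMIs. Where no construction of the alternative shows the cause, the cause was not tested. No paired analysis was possible because each region has 1 library. Depth limits the single genes, since of the 15 highest-ranked on either side 3 and 5 had intervals beyond 1 in both libraries.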
